A study of Mus musculus with 8 samples.

Results

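The genes of the mitochondrial respiratory chain were examined in RNA sequencing of the embryonic mouse retina. They are the protein-coding features whose symbols begin with Nduf (followed by a, b, c, s or v and a number), Uqcr, Cox (with a number of 4 to 8), Atp5 or mt-, together with the succinate dehydrogenase genes Sdha to Sdhd and cytochrome c, Cycs. This rule took 96 of the 28432 genes in the count table, 83 of them encoded in the nucleus and 13 in the mitochondrial genome. CKO embryos carried 1 floxed and 1 null allele of Lhx2 (Lhx2flox/KO), and control embryos 1 floxed and 1 wild-type allele (Lhx2flox/+). Lhx2 encodes a LIM homeodomain transcription factor of retinal progenitors. Both groups were heterozygous for CreERT2 knocked into the Hes1 locus, which restricts recombination to cells that express Hes1. Both therefore lack 1 intact copy of Hes1, and both received tamoxifen through the dam at E11.5 and were harvested at E15.5. Recombination therefore also leaves the control cells with 1 working copy of Lhx2. Each sample held the pair of retinas of 1 embryo, with 4 embryos per genotype, and the libraries held 13955259 to 19099937 counted reads in CKO samples and 13143587 to 15063867 in control samples.

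The respiratory chain passes electrons from NADH (complex I) and succinate (complex II) through ubiquinone, complex III and cytochrome c to oxygen (complex IV), and ATP synthase uses the resulting proton gradient to make ATP. Complexes I, III and IV and ATP synthase are mosaics: a few hydrophobic core subunits are encoded in mitochondrial DNA and the rest in the nucleus, while complex II is encoded in the nucleus alone. Several complex IV subunits exist as paralogues used in different tissues or oxygen conditions. Neural progenitors lean on glycolysis, and neurons rely more on oxidative phosphorylation.

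The rule rests on symbols and takes a few genes that are not subunits in the strict sense. Atp5s and Atp5sl are named for likeness to ATP synthase parts (Atp5sl is also known as a complex I assembly factor, Dmac2), Cox7a2l acts in assembling supercomplexes, and Ndufa4, first assigned to complex I, is counted here with its paralogue Ndufa4l2 in complex IV. It misses 7 genes of the chain under other names, such as Cyc1 and Ndufab1, which are described with the pathway lists. Of the 96 genes, 91 reached the minimum of 20 normalized read counts (counts divided by a size factor per library) in at least 3 samples and were tested, 81 nuclear and 10 mitochondrial. The muscle forms Cox6a2 and Cox8b and the mitochondrial genes mt-Co2, mt-Co3 and mt-Atp6 did not reach it.

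Facts of the whole series bear on these genes. Markers of retinal progenitors summed to 34089 to 40460 normalized counts in CKO samples and 79023 to 87591 in control samples, with 6 of 7 lower, and markers of retinal ganglion cells to 49258 to 52321 in CKO and 36608 to 43813 in control samples, with 3 of 6 higher. In bulk tissue fewer cells of a type and less RNA per cell cannot be told apart, and the part of these shifts in the results below was not tested. Lhx2 itself had 2557, 2765, 2853 and 2868 normalized counts in the CKO samples and 3478, 3081, 3631 and 3138 in the control samples. These ranges do not overlap, but the count covers the whole gene and does not show whether its floxed exons were lost, so it is no check of the deletion. By Xist, CKO replicate 1 and control replicates 1 and 4 came from female embryos.

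Among all 13891 genes tested, 3.64% were higher and 4.97% lower in the CKO at an adjusted p below 0.001 (edgeR quasi-likelihood test, Benjamini-Hochberg adjustment), 8.61% in both directions together. Of the 81 nuclear respiratory chain genes, 0 were higher, 2 were lower and 79 did not pass. The 2 were Cox4i2 and Ndufa4l2, both minor forms of complex IV subunits with an abundant paralogue. No nuclear member had an unadjusted p under 0.05 in the higher direction, and 18 had one in the lower. By direction, the shares of all genes at that level were not counted. They cannot be smaller than those at an adjusted p below 0.05, given below. For both directions together, ranks among the 13891 genes tested bound the share. Ndufa3, the last nuclear member inside that level, ranked 5931, and Cox8a, the first outside it, ranked 6168. The 18 of 81 nuclear members were thus a smaller share than that of all genes in both directions together. DESeq2 and limma voom also placed 0 nuclear members in the higher direction. At an adjusted p below 0.05, where 15.9% of all genes were higher and 17.4% lower, 0 nuclear members were higher and 9 lower. The 9 were Cox4i2, Ndufa4l2, Atp5g2, Sdha, Sdhd, Uqcrc1, Uqcrc2, Ndufb10 and Ndufb11.

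Apart from these 2 genes the differences were small. The log2 fold change (log2FC, CKO over control) was below 0 for 74 of the 81 nuclear members, with a median of -0.10, against a median of 0.01 over all genes tested. Of all genes tested, 50.8% had a log2FC above 0. For 76 of the 81 nuclear members the change was under 1.2-fold in either direction, against 64.6% of all genes tested. For 77 of them the 95% interval lay within 0.5 of 0 on the log2 scale. The plot of fold changes by complex shows the narrow band in which most genes lay.

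**Figure D1:**
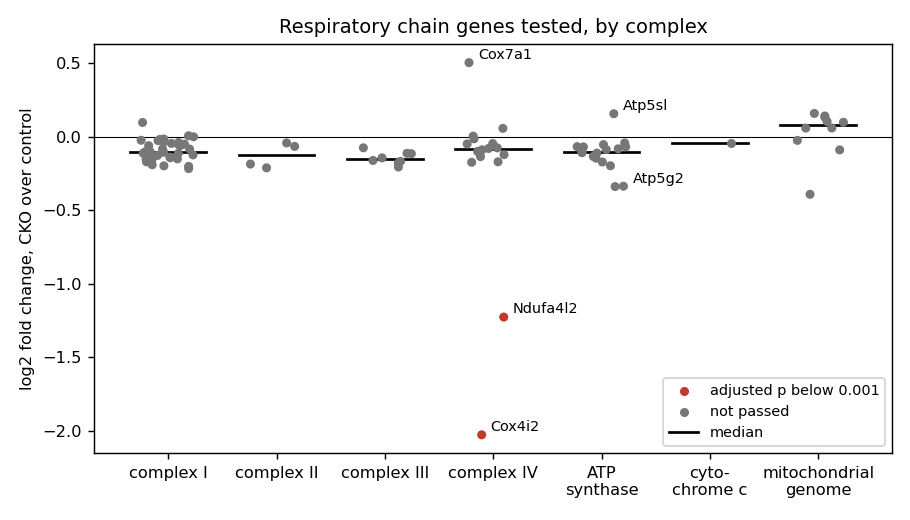
Log2 fold change (CKO over control, vertical axis) of the 91 respiratory chain genes tested, 1 point per gene, with the 81 nuclear genes grouped by complex and the 10 mitochondrial genes at the right. Black lines are group medians, red points passed an adjusted p of 0.001, and Cox4i2 (-2.03) and Ndufa4l2 (-1.23) lie far below the rest.

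The small shift was spread unevenly over the libraries. Control replicate 3 had the highest value of the 8 samples for 74 of the 81 nuclear members, and CKO replicate 1 the lowest for 59. Set against the control mean of each gene, the median over the 81 genes was -0.23, -0.04, -0.09 and -0.10 on the log2 scale in CKO replicates 1 to 4, and -0.04, -0.10, 0.18 and -0.06 in control replicates 1 to 4. The remaining 3 CKO and 3 control samples thus covered nearly the same range. Without control replicate 3 the median log2FC of the nuclear members was -0.04, with 58 of 81 below 0. Without CKO replicate 1 it was -0.07, with 68 of 81 below 0. With both left out, a choice made after the values were seen, it was -0.005, with 42 of 80 genes below 0 and 38 above. The libraries left out were picked as extremes of these same genes, so leaving them out had to raise the median. Single genes behaved otherwise in that fit: Cox4i2 (log2FC -1.79), Ndufa4l2 (-0.94), Atp5g2 (-0.25), Sdha (-0.17) and Uqcrc2 (-0.11) kept an edgeR adjusted p below 0.05, while Sdhd, Uqcrc1, Ndufb10 and Ndufb11 did not. Cox6a1 alone was then higher at that level (log2FC 0.22).

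**Figure D2:**
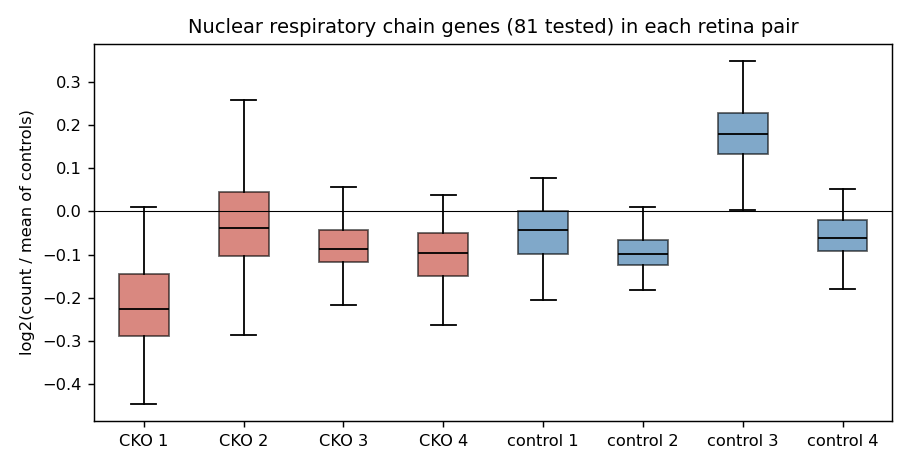
Log2 ratio of each sample's normalized count to the mean of the 4 controls (vertical axis) over the 81 nuclear respiratory chain genes tested, in each CKO and control sample. Boxes span the quartiles with the median as a line, and whiskers reach the farthest gene within 1.5 box lengths; control replicate 3 sits highest (median 0.18) and CKO replicate 1 lowest (median -0.23).

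The same libraries differed in other genes by length. The tested nuclear members are short, with a median of 1675 exonic bases against 4528 over all genes tested with a known length. With the respiratory chain genes left out, CKO replicate 1 had a median deviation of -0.09 (log2) from the 8-sample mean over the 328 tested genes under 1000 bases, and control replicate 3 one of 0.17. Over the 10000 genes of at least 3000 bases the deviation was -0.004 in CKO replicate 1 and -0.03 in control replicate 3. The part of gene length in the shift of the respiratory chain genes was not tested.

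As a share of all counts, the 83 nuclear genes made up 0.706%, 0.792%, 0.776% and 0.759% in the CKO samples, against 0.813%, 0.789%, 0.930% and 0.796% in the control samples. CKO averaged 0.758% ± 0.0374 and control 0.832% ± 0.0660 (SD, n = 4 each), and CKO replicate 2 lay above control replicate 2. The 13 mitochondrial genes made up 1.44%, 1.16%, 1.06% and 1.37% in the CKO samples, against 1.18%, 1.30%, 1.13% and 1.13% in the control samples, or 1.25% ± 0.177 in CKO and 1.19% ± 0.0795 in control (SD, n = 4 each). CKO replicates 1 and 4 were high and CKO replicate 3 was the lowest of all, so the groups overlapped. CKO replicate 1 thus had the smallest nuclear and the largest mitochondrial share.

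**Figure D3:**
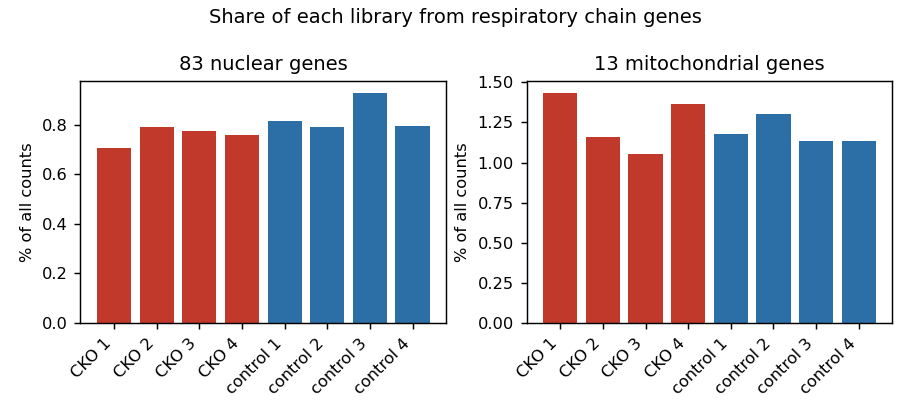
Percent of all counts (vertical axes, from 0) taken by the 83 nuclear (left) and the 13 mitochondrial (right) respiratory chain genes in each library, CKO replicates in red and control replicates in blue. The mitochondrial share ran from 1.06% to 1.44% in CKO and 1.13% to 1.30% in control libraries.

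Cox4i2 encodes the alternative isoform of COX4, a regulatory subunit of complex IV known for its expression in lung and its induction at low oxygen. The gene lies on chromosome 2 (152754173 to 152765037, plus strand, GRCm38). It had 84.2, 107, 125 and 113 normalized counts in the CKO samples, against 359, 396, 554 and 433 in the control samples. The highest CKO value was far below the lowest control value. The CKO mean was 107 ± 17.0 and the control mean 436 ± 84.3 (SD, n = 4 each), a log2FC of -2.03 (SE 0.149, edgeR adjusted p = 3.154e-06), which ranked 92 of all genes by p. It was called under all 19 alternatives tried, with a log2FC of -2.11 to -1.79. No stretch of 50 bases, the read length, in its transcripts occurs in another annotated gene, and no other gene's exons overlap it.

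Cox4i1, the abundant form of the same subunit, had 2960.0, 3292, 3163 and 3335 normalized counts in the CKO samples and 3471, 3108, 3927 and 3064 in the control samples. These values overlap, and the log2FC was -0.09 (SE 0.0737, edgeR adjusted p = 0.39). Per kilobase of exon, Cox4i2 stood at 136 normalized counts in CKO and 553 in control, and Cox4i1 at 2056 in CKO and 2189 in control, so Cox4i1 remained the more abundant form in both genotypes.

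Ndufa4l2 encodes a paralogue of the complex IV subunit NDUFA4 and is known as a target of the hypoxia factor HIF-1 that lowers respiration. It lies on chromosome 10 (127514967 to 127517154, plus strand), and its exons overlap those of Shmt2 on the other strand. Reads of the overlap cannot be assigned to strand, but no stretch of 50 bases in its transcripts occurs in another annotated gene. It had 272, 377, 429.9 and 376 normalized counts in the CKO samples, against 706, 840.4, 1144 and 709 in the control samples. The highest CKO sample was below the lowest control sample, and control replicate 3 stood out above its group. The means were 364 ± 65.9 in CKO and 850 ± 206 in control (SD, n = 4 each), with a log2FC of -1.23 (SE 0.165, edgeR adjusted p = 0.000215, rank 672). It was the member nearest the threshold on the inside, and the call was lost without CKO replicate 2 or without CKO replicate 4, where the log2FC was -1.24 in both. With control replicate 3 and CKO replicate 1 both left out it was still called, as Cox4i2 was.

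Ndufa4, the abundant paralogue, is a constitutive complex IV subunit. It had 1616, 2018, 1804 and 1816 normalized counts in the CKO samples and 1825, 1729.8, 2324 and 1793 in the control samples, a log2FC of -0.08 (SE 0.0903, edgeR adjusted p = 0.54) that was 0.03 without control replicate 3. The groups overlapped, with CKO replicate 1 below every control sample and control replicate 3 above every CKO sample.

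**Figure D4:**
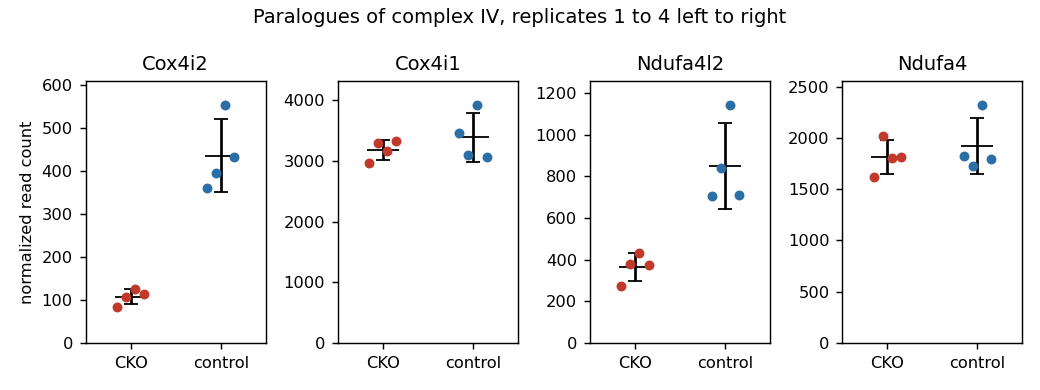
Normalized read counts (vertical axes, from 0) of Cox4i2, Cox4i1, Ndufa4l2 and Ndufa4 in the 4 CKO (red) and 4 control (blue) samples, with the mean and SD in black. The genotypes are separate for Cox4i2 (mean 107 in CKO, 436 in control) and Ndufa4l2 (364 in CKO, 850 in control) and overlap for Cox4i1 and Ndufa4.

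Both genes are also known from the mural cells of blood vessels, so vessel markers are given beside them. Of 5 endothelial markers, Kdr and Cldn5 were lower in the CKO and Pecam1, Cdh5 and Tie1 did not pass, with log2FC values of 0.05, 0.09 and 0.07. The median of the 5 was 0.05, and they summed to 2622 to 3427 normalized counts in CKO samples and 4321 to 4585 in control samples. Kdr, which retinal progenitors are also known to express, made up most of that sum, with 2479, 3145, 3039 and 3063 in CKO and 3943, 4043, 4157 and 4272 in control samples. Cldn5, a tight junction protein of endothelium, had 45.3, 39.6, 61.3 and 84.3 in the CKO samples and 153, 158, 202 and 154 in the control samples. Of 9 mural cell genes, a list added after values had been seen, 5 were tested and 0 passed in either direction, with a median log2FC of 0.22. Abcc9 (log2FC 1.14), Cspg4 (0.27) and Rgs5 (0.22) had positive values, with overlapping groups. Among them Rgs5 had 48.5, 114, 223 and 287 counts in the CKO samples and 203, 151, 48.0 and 159 in the control samples, and the list summed to 373 to 727 in CKO and 438 to 649 in control samples. Pdgfrb, the receptor that recruits mural cells, had 206, 218, 179 and 254 in CKO and 276, 291, 283 and 286 in control samples, which do not overlap (log2FC -0.40, edgeR adjusted p = 0.00942), and Vtn likewise did not overlap (log2FC -0.50). The mural sum thus overlapped between genotypes, with 2 of its 5 genes below the control range and 3 with a positive log2FC, and the part of vessel cells in the lower Cox4i2 and Ndufa4l2 was not tested.

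Genes known to be induced by low oxygen, again a list added after values had been seen, did not share one direction. Of 9 genes 7 were tested, with 2 higher (Bnip3, log2FC 0.82, and Pdk1, 0.66), 1 lower (Slc2a1, -1.02) and 4 not passed. Bnip3 had 1913, 1920.3, 1645 and 1857 normalized counts in the CKO samples and 963, 1050, 1135 and 1013 in the control samples. Slc2a1, the glucose transporter GLUT1, had 4647, 4604, 4885 and 4998 in the CKO samples and 10221, 9421, 10290 and 8948 in the control samples. Neither gene's groups overlapped, and Cox4i2 and Ndufa4l2 had the direction of Slc2a1. The list summed to 12838 to 13935 normalized counts in CKO samples and 15112 to 16860 in control samples, again without overlap, while its median log2FC was 0.31. Slc2a1 made up most of that sum in the control samples, and its mean fell by more than the mean of the sum. The part of oxygen supply in the lower Cox4i2 and Ndufa4l2 was not tested.

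The other paralogue sets of complex IV showed no call. Cox6a1 averaged 2117 ± 180.5 normalized counts in CKO and 2036 ± 315 in control (SD, n = 4 each), while its muscle form Cox6a2 had at most 1 read per sample. Cox8a, with Cox6a1 and Cox6b1 among the 3 most abundant nuclear members of complex IV per kilobase (2745 in CKO, 3099 in control), had a log2FC of -0.17 (SE 0.0801), and its muscle form Cox8b was at 0 in all samples but CKO replicate 3. Cox6b1 averaged 2004 ± 96.2 in CKO and 2149 ± 195 in control, and the testis form Cox6b2 was also detected, at 81.7 ± 6.22 in CKO and 89.996 ± 11.2 in control (SD, n = 4 each). Cox7a2 and Cox7a2l had log2FC values of -0.07 and -0.01. Cox7a1, the heart and muscle form, had the most positive log2FC of all nuclear members, 0.51 (SE 0.289, edgeR adjusted p = 0.20). It was low, with 27.0, 24.1, 20.8 and 20.3 counts in CKO samples and 12.1, 13.5, 27.4 and 13.2 in control samples, and control replicate 3 lay above every CKO sample.

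Complex I is the NADH dehydrogenase, and 35 of its nuclear genes were tested. None passed in either direction (0 higher, 0 lower), the median log2FC was -0.10 and the range -0.22 to 0.10. Ndufa2, the most abundant per kilobase (1634 in CKO, 1817 in control), averaged 934 ± 53.4 normalized counts in CKO and 1039 ± 132 in control (SD, n = 4 each). Ndufb11, an X-linked accessory subunit with the smallest p of the complex, had 924, 980.4, 957 and 942 counts in the CKO samples and 1135, 986, 1233 and 1026 in the control samples. The groups did not overlap, but CKO replicate 2 and control replicate 2 nearly met, and the log2FC was -0.20 (SE 0.0669, edgeR adjusted p = 0.038).

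Complex II, succinate dehydrogenase, also belongs to the citric acid cycle, and its 4 genes had log2FC values of -0.21 (Sdha), -0.04 (Sdhb), -0.06 (Sdhc) and -0.18 (Sdhd). Sdha, the flavoprotein that oxidises succinate, had 2734, 3211, 3108 and 3058 normalized counts in the CKO samples and 3543, 3469, 3466 and 3544 in the control samples. The control values were tight and all above the CKO values (SE 0.04995, edgeR adjusted p = 0.00743). Sdhd, a membrane anchor, had 1188, 1356, 1358 and 1236 in the CKO samples and 1474, 1344, 1518 and 1509 in the control samples, overlapping through control replicate 2 (edgeR adjusted p = 0.0291). Sdhb and Sdhc, the iron-sulfur subunit and the other anchor, overlapped broadly, with adjusted p of 0.68 and 0.42.

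Complex III, the cytochrome bc1 complex, had 8 nuclear genes tested, with 0 passed and log2FC values of -0.20 to -0.07 (median -0.15). Uqcrc2, a core protein, had 2498, 2860.2, 2845 and 2669.9 normalized counts in the CKO samples and 3077, 2959, 3178 and 2999 in the control samples, without overlap (log2FC -0.17, SE 0.0495, edgeR adjusted p = 0.0234). Uqcrfs1, the Rieske iron-sulfur protein, averaged 1839 ± 116 in CKO and 1938 ± 128 in control (SD, n = 4 each) and overlapped.

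ATP synthase had 17 members tested, 0 of which passed, with a median log2FC of -0.10. Atp5b, its catalytic beta subunit and the most abundant nuclear member per kilobase (3729 in CKO, 3909 in control), averaged 15801 ± 1091 normalized counts in CKO and 16561 ± 921 in control (SD, n = 4 each). The c ring, through which protons pass, is encoded by 3 genes with the same mature protein. Of these Atp5g2 had 749, 854, 799.7 and 827 normalized counts in the CKO samples and 1007, 966, 1137 and 971 in the control samples, without overlap. Its log2FC was -0.34 (SE 0.0633, edgeR adjusted p = 0.00197), the member just outside the threshold, and DESeq2 and the fit with no count filter called it. Of its 50-base stretches, 38.4% also occur in other annotated genes, mostly processed pseudogenes, so its count is uncertain. Atp5g3, the most abundant of the 3 genes, had a log2FC of -0.10 (SE 0.0644), and Atp5g1 one of -0.09 (SE 0.0838). Atp5sl was the single nuclear member whose CKO values all lay above the control values, at 259, 284, 257 and 258 in CKO and 243, 234, 252 and 222 in control samples (log2FC 0.16, SE 0.0760, edgeR adjusted p = 0.13). Cytochrome c, the mobile electron carrier, averaged 691 ± 39.8 in CKO and 713 ± 21.9 in control (SD, n = 4 each; Cycs log2FC -0.04, SE 0.0579).

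In all, 9 nuclear members had every CKO value below every control value and 1 had every CKO value above, against 17.9% and 15.9% of all genes tested. These 10 of 81 were a smaller share than the background in both directions.

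Promoter sequences were at hand in RefSeq (GRCm38.p6) for 69 of the 83 nuclear members. The called members Cox4i2 and Ndufa4l2 had no such sequence and were not searched, and neither was Uqcrc2. Nuclear respiratory factor 1 (NRF1) and the ETS factor GABP, also called NRF2, are known activators of these genes, and their core motifs were searched in the 250 bases before and 50 after each transcription start on both strands. The NRF1 motif was taken as GCGCA and GCGC with any 1 base between, and the GABP motif as CCGGAAG. The NRF1 motif was found in 17 of the 69 members (24.6%) and in 5.19% of all 27025 genes with such sequence, and the GABP motif in 16 members (23.2%) and 9.93% of all genes. Either was found in 29 members and both in 4. Shown here are the promoters of the 3 members closest to the threshold among those with an NRF1 motif and an adjusted p below 0.05, on the minus strand of chromosomes 13, 9 and 15, 5′ to 3′ with motif matches in capitals. Sdha (chr13:74350191-74350490) holds 3 NRF1 matches, Sdhd (chr9:50603800-50604099) 1 of each motif, with the GABP one read on the opposite strand, and Atp5g2 (chr15:102670998-102671297) 1 NRF1 match that reads the same way on both strands.
Sdha promoter: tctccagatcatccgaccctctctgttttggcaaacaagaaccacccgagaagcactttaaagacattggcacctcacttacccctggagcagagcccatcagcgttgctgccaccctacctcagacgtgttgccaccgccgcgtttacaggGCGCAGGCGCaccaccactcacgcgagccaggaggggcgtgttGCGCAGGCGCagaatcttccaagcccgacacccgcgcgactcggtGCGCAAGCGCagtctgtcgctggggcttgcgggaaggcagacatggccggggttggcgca
Sdhd promoter: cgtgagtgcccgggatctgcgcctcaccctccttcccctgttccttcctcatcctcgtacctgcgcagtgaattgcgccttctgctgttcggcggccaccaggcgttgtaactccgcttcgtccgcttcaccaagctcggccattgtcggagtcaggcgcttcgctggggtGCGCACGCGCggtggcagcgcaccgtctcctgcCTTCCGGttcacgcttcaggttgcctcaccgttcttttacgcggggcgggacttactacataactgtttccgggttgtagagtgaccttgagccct
Atp5g2 promoter: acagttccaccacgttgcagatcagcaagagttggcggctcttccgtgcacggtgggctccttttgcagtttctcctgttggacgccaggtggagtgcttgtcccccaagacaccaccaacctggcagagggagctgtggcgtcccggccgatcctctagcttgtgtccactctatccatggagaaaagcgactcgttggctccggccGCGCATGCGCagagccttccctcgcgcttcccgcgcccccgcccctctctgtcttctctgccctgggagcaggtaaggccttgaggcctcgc
Gabpa, which encodes the DNA-binding subunit of GABP, had a log2FC of -0.25 (SE 0.0556, edgeR adjusted p = 0.00506), and passed at 0.001 with DESeq2, and also once control replicate 3 was left out, alone or with CKO replicate 1. It had the smallest p of the 12 nuclear regulators of respiratory genes tested, of which 0 passed by edgeR with all libraries (median log2FC -0.09). Its part in the levels of the respiratory chain genes was not tested.

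The mitochondrial genome encodes 7 subunits of complex I, 1 of complex III, 3 of complex IV and 2 of ATP synthase. None of the 10 tested passed (0 higher, 0 lower, 0 with an unadjusted p under 0.05, and 0 with DESeq2 or limma voom). For the 8 genes with more than 5000 normalized counts in every sample, the log2FC values were -0.02 for mt-Atp8 and 0.06 to 0.16 for the other 7, with a median of 0.10, opposite in sign to the nuclear median. That median was 0.02 without CKO replicate 1 and 0.01 without CKO replicate 1 and control replicate 3, and 0.17 without CKO replicate 3.

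The catalytic complex IV subunit mt-Co1 had 50324, 40208, 37325 and 50172 normalized counts in the CKO samples and 38786, 46458, 36665 and 39652 in the control samples. CKO replicates 1 and 4 were high and the other CKO samples lay within the control range (log2FC 0.14, SE 0.110, edgeR adjusted p = 0.35). The apocytochrome b of complex III, mt-Cytb, had the same order of CKO samples, with 48847, 38194, 35225 and 45833 in CKO and 38984, 43156, 37156 and 37322 in control samples. The complex I genes behaved alike: mt-Nd1 averaged 32096 ± 3837 in CKO and 29328 ± 1189 in control, mt-Nd2 18366 ± 2619 in CKO and 17643 ± 611 in control, mt-Nd4 12682 ± 2108 in CKO and 12193 ± 711 in control, and mt-Nd5 24032 ± 3181 in CKO and 21548 ± 2248 in control (SD, n = 4 each). In these 4 genes the spread of the CKO samples was wider than that of the control samples. mt-Nd6, the single protein gene of the other strand, averaged 6491 ± 845 in CKO and 6071 ± 504 in control (SD, n = 4 each), and its last bases overlap mt-Nd5; without strand, reads from either strand of this region cannot be told apart. mt-Atp8 averaged 12428 ± 1576 in CKO and 12651 ± 665 in control (SD, n = 4 each), and overlaps mt-Atp6.

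The other 5 mitochondrial genes were nearly empty. mt-Co2 had 2 to 8 reads in CKO samples and 1 to 8 in control samples, mt-Co3 2 to 12 in CKO and 3 to 5 in control, mt-Atp6 8 to 18 in CKO and 9 to 16 in control, mt-Nd4l 7 to 28 in CKO and 15 to 19 in control, and mt-Nd3 13 to 35 in CKO and 22 to 32 in control. By contrast mt-Nd1, on the same polycistronic RNA, had 24702 to 44080 reads in CKO samples and 26591 to 29082 in control samples. Copies of mitochondrial DNA lie in the nuclear genome, and a block of chromosome 1 (24611535 to 24616197, minus strand, GRCm38) holds annotated pseudogenes that match these genes base for base. Over the aligned length there was no difference between mt-Co2 and Gm28661 (681 bases), mt-Atp6 and Gm10925 (678), mt-Co3 and Gm28437 (783), mt-Nd3 and Gm28438 (342) or mt-Nd4l and Gm10222 (294). A read of 50 bases from such a stretch fits both places equally. Of all 50-base stretches, 100% in mt-Co2, 99.9% in mt-Co3, 99.5% in mt-Atp6, 98.8% in mt-Nd4l and 98.0% in mt-Nd3 also occur in another annotated gene.

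Pairs of 60-base stretches show the identity, the start of mt-Co2 (chrM:7013-7072, plus strand) beside Gm28661 (chr1:24615506-24615565, minus strand), and bases 4 to 63 of mt-Nd3 (chrM:9462-9521, plus strand) beside Gm28438 (chr1:24613057-24613116, minus strand). All letters are in lower case because no position differs within a pair.
mt-Co2: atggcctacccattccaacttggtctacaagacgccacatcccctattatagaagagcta
Gm28661: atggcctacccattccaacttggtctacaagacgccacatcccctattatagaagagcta
mt-Nd3: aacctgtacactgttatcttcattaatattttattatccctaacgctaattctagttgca
Gm28438: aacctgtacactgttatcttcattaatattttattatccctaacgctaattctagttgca

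mt-Co1 shared 51.1% of its stretches, with Gm29216 on chromosome 1, Gm13340 on chromosome 2 and Gm11512 on chromosome 11 together, and mt-Nd4 62.2%, with Gm28439. Both still had high counts: with 731 and 502 start positions unique to them, all their reads came to 473 and 202 per unique position over the 8 samples. mt-Cytb, mt-Nd1, mt-Atp8 and mt-Nd6, which share none, had 302, 275, 656 and 109. Reads from shared stretches, if counted, raise the values of mt-Co1 and mt-Nd4, so these values do not show whether reads were lost. The aligned parts of mt-Co1 and Gm29216 differed at 1 of 483 bases, A1066T (the base of mt-Co1, its position from the first base of the gene, the base of the copy). The copies themselves held few reads, 0 to 3 per sample, except Gm28438 with 43 to 68 in CKO and 31 to 51 in control samples. How the aligner and counter treated reads with several matches has no description in the labels or methods, and its part in the low counts was not tested. The levels of the 5 nearly empty genes are therefore uncertain in both genotypes, and these genes add almost nothing to the share of mitochondrial reads given above. The levels of mt-Co1 and mt-Nd4 are uncertain for the shared part of each gene.

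**Figure D5:**
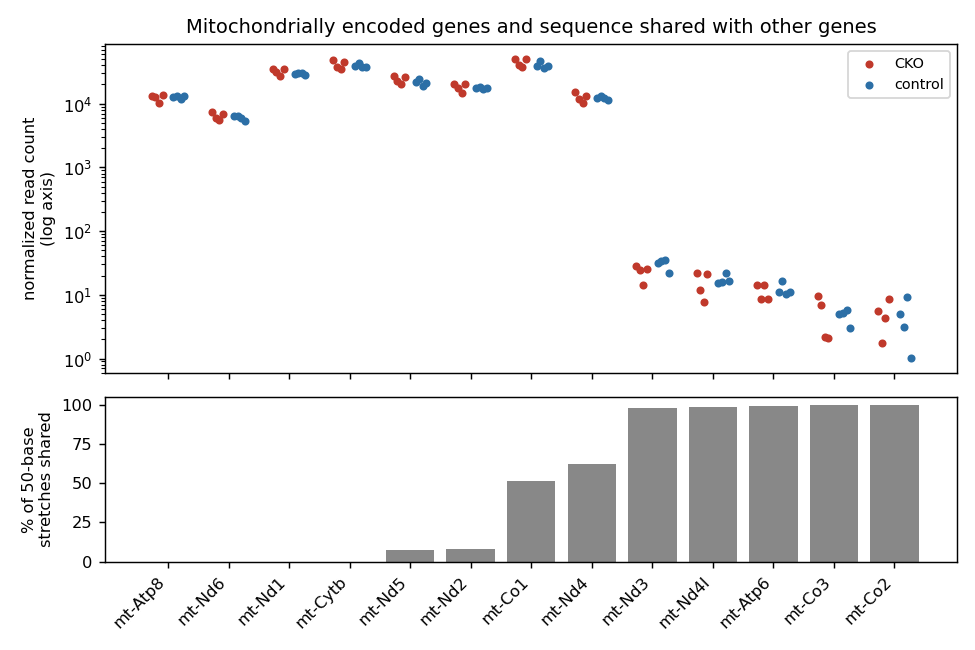
Top, normalized read counts (log axis) of the 13 mitochondrially encoded genes in 4 CKO (red, left) and 4 control (blue, right) samples each. Bottom, percent of each gene's 50-base stretches that also occur in another annotated gene; the 5 genes at 98.0% or more have at most 35 reads per sample.

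Lists of genes that serve the chain are set beside all genes tested, of which 3.64% were higher and 4.97% lower. The citric acid cycle and pyruvate list (19 tested, median log2FC -0.06) had 0 higher and 2 lower, which is not below that share. Suclg2, the GTP-forming succinyl-CoA ligase subunit one step before succinate dehydrogenase, had 349.5, 419.6, 439 and 409 normalized counts in the CKO samples, against 778, 774, 677 and 776 in the control samples, a log2FC of -0.90 (SE 0.0798, edgeR adjusted p = 1.356e-05). Pcx, pyruvate carboxylase, had 350.3, 428, 364 and 377 in CKO and 552, 523, 572 and 541 in control samples (log2FC -0.52). Neither showed overlap. Mrpl42 was the 1 gene of the mitochondrial ribosome lower among 76 tested (median log2FC -0.15), at 524, 628, 562 and 587 in CKO and 772, 731, 848 and 728 in control samples (log2FC -0.42, SE 0.0699), and it did not pass when any 1 of the 8 libraries was left out.

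With 8.61% of all genes tested called, lists of a few genes would often have 0. The remaining lists had 0 calls in both directions by edgeR with all libraries. They covered assembly factors of complex I (14 tested, median log2FC -0.09), II (4, -0.07), III (6, -0.01), IV (19, -0.09) and ATP synthase (3, -0.10), transcription and replication of mitochondrial DNA (15, -0.13), mitochondrial RNA processing (15, -0.05), coenzyme Q synthesis (13, -0.07), import and carriers (13, -0.04), nuclear regulators (12, -0.09) and the respiratory chain genes outside the symbol rule (6, -0.05). Tfam, which packages and transcribes mitochondrial DNA, had 999, 1165, 1152 and 1069 normalized counts in the CKO samples and 1299, 1347, 1288 and 1366 in the control samples, without overlap (log2FC -0.27, SE 0.0558, edgeR adjusted p = 0.00321). Cmc2, a complex IV assembly factor, had 180.3, 198, 218 and 174 in CKO and 268, 268, 295 and 255 in control samples (log2FC -0.49, edgeR adjusted p = 0.00168). Tfam and Cmc2 both passed at 0.001 with DESeq2, and Cmc2 also in the fit with no count filter. The smallest adjusted p of each other list was 0.0117 for Hsd17b10, 0.0121 for Ndufaf7, 0.0150 for Tomm40, 0.0597 for Pdss2, 0.13 for Atpaf2, 0.26 for Hccs, 0.33 for Bcs1l and 0.54 for Sdhaf2, all by edgeR.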

How the data were processed

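Poly(A) RNA of E15.5 retinas was sequenced by the authors in 50-cycle single-end reads with a kit that keeps no strand, aligned to mm10 with TopHat2 and counted per gene with HTSeq; neither the labels nor the methods give tool versions, the strand setting or the treatment of reads with several matches. The deposited values are raw counts, not normalized or pooled, for 28432 genes and 8 samples, all used. Gene coordinates, exons and transcripts came from GENCODE M21 (GRCm38), which holds all 96 members.

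Genes that reached 20 normalized counts in 3 or more samples entered the edgeR 4.0.16 quasi-likelihood test in R 4.3.3 (TMM scaling, genotype as the only term, Benjamini-Hochberg adjustment over 13891 genes, called below 0.001). The filter and cutoff are those of the study. To give normalized counts, each library was divided by its median-of-ratios factor; the log2FC is not shrunken, and its SE is its size over the square root of F. Intervals are at 95%. The replicates are separate embryos, which the study took for each genotype from fewer litters than embryos, over consecutive days. Some embryos of a group therefore share a litter, and the litter and day of each are not in the labels. Alternatives were DESeq2 1.42.0, limma 3.58.1 voom, other scalings and filters, a threshold of 0.05, embryo sex, a replicate block and leaving out each sample. The test was checked on simulated data.

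The members and lists were chosen with earlier results of these data known. Named were all mitochondrial genes, members past or nearest the threshold, the most abundant and the smallest p of each complex, the paralogue sets, the smallest p of each pathway list, and Lhx2. Sdhb, Sdhc, Ndufb10, Uqcrc1, Atp5s, Atp5sl, Pcx and the genes of the mural and hypoxia lists were chosen after their values were seen. Stretches of 50 bases were compared exactly, on both strands, with all GENCODE M21 transcripts.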

Additional observations from a re-analysis of the deposited data

Results flagged for a closer look

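For the named genes and both shares, each group of 4 samples was tested for a highest or lowest sample far from the rest (Dixon's test at 95%), which marked 14 of 119 groups, and chance marks about 1 in 20. Control replicate 3 stood high in Ndufa4 (2324 normalized counts, the other controls 1729.8 to 1825), Cox6b1 (2439), Cox7a1 (27.4) and mt-Nd4l (21.7), and low in Suclg2 (677). CKO replicate 1 stood low in Sdhb (1356, the other CKO samples 1597 to 1614). Atp5sl was high in CKO replicate 2 (284), Atp5s low in CKO replicate 4 (66.2) and Atpaf2 low in CKO replicate 3 (246). Control replicate 2 was high in Hccs (595) and in mt-Atp6 (16.7). Cox6a2 was above 0 in CKO replicate 2 (0.862) and control replicate 1 (1.01) only, and Cox8b in CKO replicate 3 only (2.19). With the rest of a group at 0, a single count above 0 is always marked. The marks of Cox6a2 and Cox8b were thus certain and cannot be set against the chance rate.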

How the results depend on the processing

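Nuclear members called numbered 0 higher and 2 lower, and mitochondrial members 0 in both directions, under most alternatives. DESeq2 and the fit with no filter had 3 nuclear members lower, and a threshold of 0.05 had 9. Leaving out 1 library gave 1 to 2 nuclear members lower, 264 to 707 genes higher and 422 to 846 lower, against 505 and 691 genes. Other counts of genes were 1158 higher and 1232 lower with DESeq2, 964 and 1091 with no filter, 2207 and 2412 at 0.05, and 272 and 404 with the replicate block. Correlations of same-numbered samples (-0.15 to 0.14) lay within those of the other pairs (-0.26 to 0.25). The replicate numbers thus gave no sign of pairing, though this cannot show how the embryos were collected. Among the single genes followed under each alternative, the block changed 1 call, that of Mrpl42 (adjusted p = 0.00376, edgeR). Median-of-ratios scaling also left Mrpl42 at an adjusted p of 0.00103 (edgeR). Chosen after seeing the data, the fit without control replicate 3 and CKO replicate 1 gave 1042 genes higher and 1062 lower, and turned the sign of the log2FC of 32 nuclear members (all below 0 with every library in) and 3 mitochondrial ones out of 89, among the genes named here mt-Nd2 (-0.0269), mt-Nd4 (-0.0533), mt-Cytb (-0.0061), Cox4i1 (0.0186), Ndufa4 (0.0742), Cox7a2 (0.0239), Cox7a2l (0.0609), Atp5g1 (0.0418), Sdhb (0.0644), Sdhc (0.0178), Uqcrfs1 (0.0015) and Atp5b (0.0101). With 1 library left out the log2FC spanned 0 for Cox6a1 (-0.0048 to 0.1647), Cox7a2l (-0.0367 to 0.0446), Ndufa4 (-0.1259 to 0.0254), Sdhb (-0.0660 to 0.0123), mt-Atp8 (-0.0809 to 0.0602), mt-Nd2 (-0.0091 to 0.1483), mt-Nd4 (-0.0494 to 0.1456) and mt-Nd4l (-0.1433 to 0.1196). The cause was not tested. With embryo sex as a covariate the nuclear median was -0.13. With 4 samples per genotype the median SE of the tested nuclear members was 0.0732, not far below the size of their median log2FC (-0.10). Power to detect differences of that size in single genes was not tested.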
